A study of Homo sapiens with 24 samples.

Results

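The interferon response was followed through 9 genes out of the 21386 counted in each library: the cytosolic RNA sensors DDX58 (which encodes RIG-I) and IFIH1 (which encodes MDA5), and the interferon-stimulated genes IFIT1, IFIT2, IFIT3, OAS1, MX1, ISG15 and IFI6. They were chosen by name, with earlier results of these data known, as a check for sensing of the expressed shRNA or of damaged DNA. All 9 passed the filter on low counts in every comparison. RNA was sequenced from the human melanoma line A375 and the lung adenocarcinoma line A549, in 4 groups of 3 biological replicates per line. shMCM7 cells are puromycin-resistant populations, not single clones, transduced with a lentiviral vector (pRSIT17) that carries a Dox-inducible shRNA against MCM7, a subunit of the replicative helicase. Parental cells carry no vector per the labels, and no libraries from cells with another shRNA were analysed here. Both kinds of cells were kept for 72 hours with 1 μg/ml doxycycline (Dox) or without it (noDox), and all groups, controls included, were arrested at the G1/S boundary by thymidine.

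Cells sense foreign or misplaced nucleic acids in the cytosol. RIG-I and MDA5 bind double-stranded RNA and signal through MAVS, and cGAS binds DNA and signals through STING. Both routes activate IRF3 and NF-kB and induce interferon beta, which acts through its receptor and JAK kinases on a promoter element, the interferon-stimulated response element, in front of genes such as IFIT1, MX1 and OAS1. Small hairpin RNAs and damaged DNA are both known as possible triggers of this response, which is why these genes are read as a control in knock-down experiments.

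The sequence targeted by the shRNA is shown because a match to an interferon gene would give its mRNA a direct route to a change.
shMCM7 target: cagaggaggatttctacgaaa
All 21 bases matched 5 of 13 MCM7 transcripts of GENCODE 29 (GRCh38) and lie across an exon junction on the minus strand, inside the coding sequence of the protein-coding transcripts matched, with 3 bases at chr7:100097834-100097836 and 18 bases at chr7:100097728-100097745. None of the annotated transcripts of the 9 genes held a full match. Only matches of all 21 bases were searched, so that an effect of the shRNA on these mRNAs through a shorter match was not tested.

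The promoters (250 bases before and 50 after the start, RefSeq, GRCh38.p14) were searched on both strands for the core letters of the response element, GAAANNGAAA, where N is any base. A shorter form, GAAANGAAA, was added after the sequences were seen. RefSeq promoters were matched for 8 of the 9 genes, all but IFIT2. GAAANNGAAA was present for 6 of the 8 genes, IFIT1, IFIT3, ISG15, MX1, IFI6 and IFIH1, against 3.57% of 34943 promoters. GAAANGAAA was present for IFIT3, MX1, OAS1 and DDX58, against 3.12% of promoters. Either form was found for all 8 genes, against 6.4% of promoters, and 2 matches can overlap. A gene was counted if any of its promoters matched (3 promoters for MX1 and 2 for IFIT3), whereas the shares are per promoter. The count for either form rests in part on the shorter form, added after these same sequences were seen, and is no test. The windows printed here give 1 match for each gene, of the longer form where it was present, chosen as the nearest to the start in the first listed promoter, with the match in capitals and 15 bases on each side, read 5′ to 3′ on the strand of the gene. They lie at chr9:32526376-32526414 on the minus strand for DDX58, chr2:162318681-162318720 on the minus strand for IFIH1, chr10:89392505-89392544 for IFIT1, chr10:89327860-89327899 for IFIT3, chr21:41420554-41420593 for MX1, chr1:1013375-1013414 for ISG15 and chr1:27672261-27672300 on the minus strand for IFI6.
DDX58: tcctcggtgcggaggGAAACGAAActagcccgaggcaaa
IFIH1: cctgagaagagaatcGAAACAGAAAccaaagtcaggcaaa
IFIT1: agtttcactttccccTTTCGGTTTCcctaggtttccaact
IFIT3: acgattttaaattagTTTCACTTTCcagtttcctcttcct
MX1: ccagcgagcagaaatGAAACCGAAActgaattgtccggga
ISG15: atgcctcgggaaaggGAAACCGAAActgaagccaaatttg
IFI6: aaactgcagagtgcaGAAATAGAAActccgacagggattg
For OAS1, the 1 gene of the 9 that was called in the main tests, a count close to the share over all genes, the whole promoter is shown (chr12:112906712-112907011, plus strand). Its match begins 17 bases before the start.
OAS1: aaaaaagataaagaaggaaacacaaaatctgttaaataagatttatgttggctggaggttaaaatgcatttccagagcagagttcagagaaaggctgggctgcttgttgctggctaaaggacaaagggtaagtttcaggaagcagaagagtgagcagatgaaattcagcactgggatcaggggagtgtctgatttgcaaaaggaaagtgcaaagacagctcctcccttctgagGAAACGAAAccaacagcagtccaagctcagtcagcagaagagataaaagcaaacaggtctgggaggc
The match is a description of the letters, and no binding was measured.

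The A375 libraries held 146656792 to 283721575 counts and the A549 libraries 17911338 to 23452823 counts, so that 3 counts correspond to 0.0106 to 0.0205 CPM in an A375 library and to 0.128 to 0.167 CPM in an A549 library (counting error only). Values are counts scaled to the library total (CPM) after TMM normalization within each line. The targeted gene MCM7 stood at 76.4 to 77.2 CPM in A375 shMCM7 Dox and at 342 to 370 CPM in both parental groups. In shMCM7 noDox, replicate 1 was at 131 CPM, far below replicates 2 and 3 at 353 and 359 CPM. In A549 the MCM7 counts go against the labels. The libraries labelled shMCM7 Dox 3, shMCM7 noDox 2 and parental noDox 2 were at 95.3, 99.7 and 88.6 CPM, while the 9 others, among them those labelled shMCM7 Dox 1 and 2, were at 299 to 339 CPM. Line identity was checked on markers. SOX10 stood at 501 to 677 CPM in A375 but had 0 counts in all A549 libraries, whereas MLANA had at most 2 counts in either line and MITF overlapped, at 26.7 to 45.1 CPM in A375 and 35.7 to 51.9 CPM in A549. KRT8 stood at 1828 to 2757 CPM in A549 and 60.6 to 93.9 CPM in A375. The leukocyte markers PTPRC and CD3E did not exceed 0.0582 and 0.0342 CPM in A375, and had at most 2 and 0 counts in A549, but LYZ, listed with them, was at 9.23 to 19.9 CPM in A375.

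Induction of the shRNA in A375 was not accompanied by a rise of the interferon response genes. In shMCM7 Dox against noDox, none of the 9 genes was up-regulated and 1, OAS1, was down-regulated. A call required a 1.5-fold change or more, together with p under 0.01 and a false discovery rate (FDR) under 0.05 in edgeR's quasi-likelihood test over 16087 genes. By the same rule 5.58% of all tested genes were up-regulated and 6.45% down-regulated, so that 1 call among 9 genes is close to the background. The median log2 fold change of the 9 genes was -0.15, beside 0.00 over all tested genes. The 95% intervals of 8 of the 9 genes, all but IFIT2, lay below a 1.5-fold rise, as did those of 82.0% of all tested genes. The groups did not overlap for 3 of the 9 genes, DDX58, MX1 and OAS1, all lower with Dox, beside 28.1% of tested genes lower and 26.3% higher in this way.

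**Figure D1:**
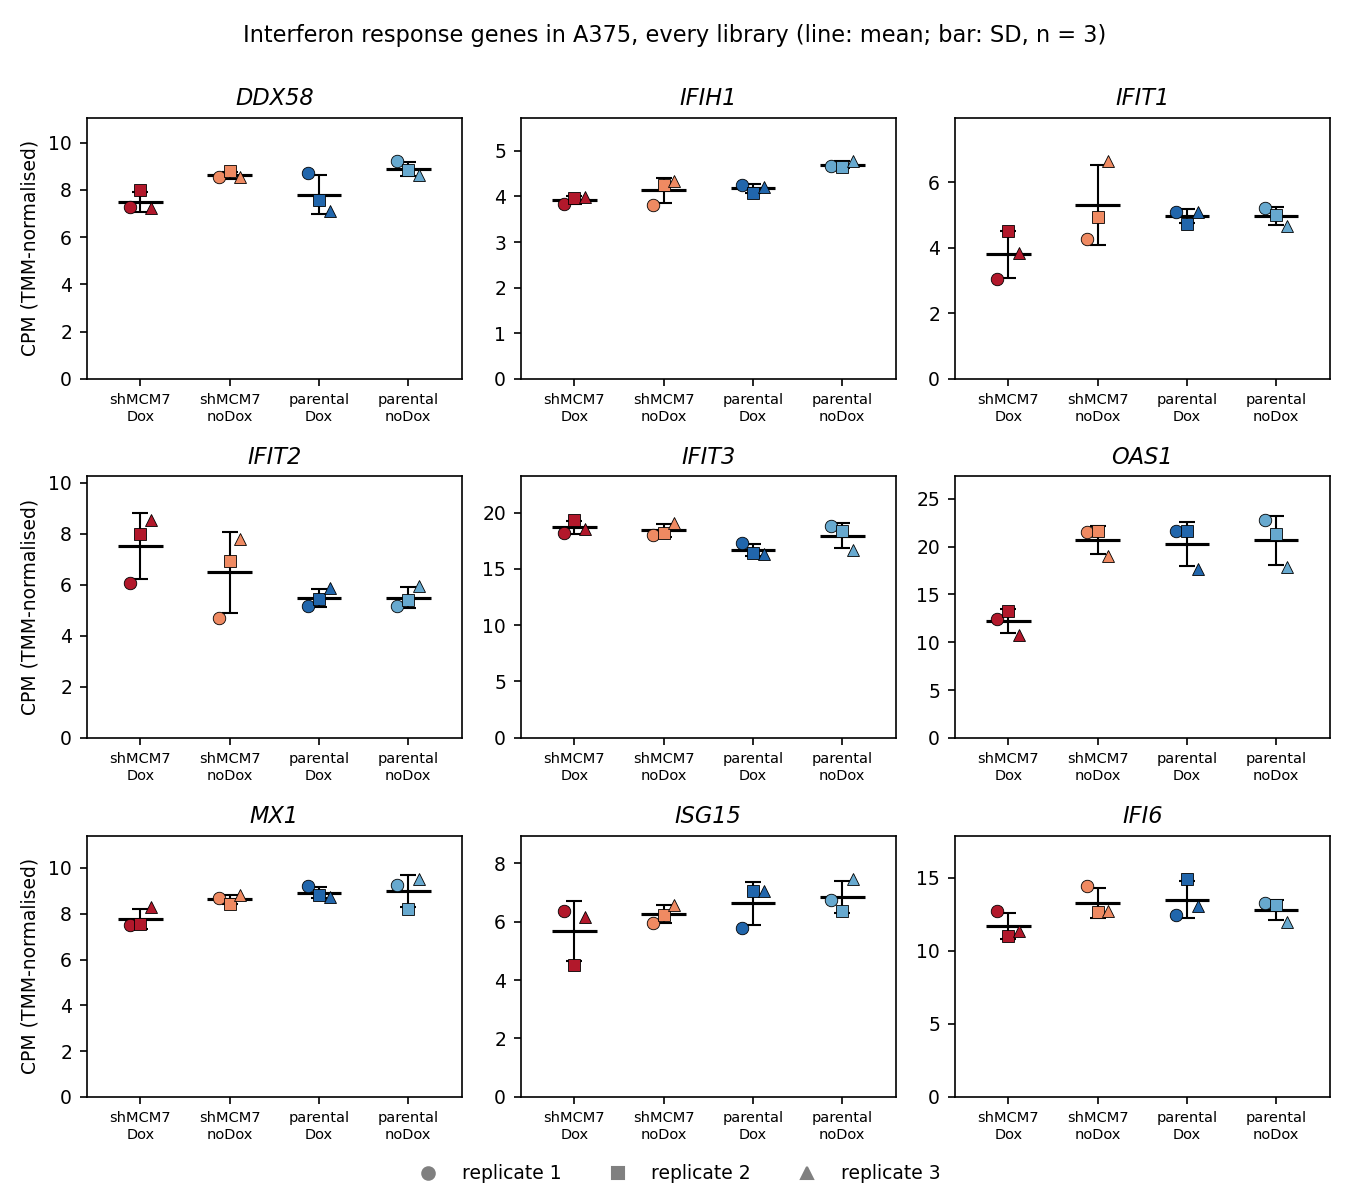
Level of each of the 9 genes in the 12 A375 libraries, in CPM after TMM normalization, by group, with symbols for the replicate number, a line at the mean and a bar of 1 SD (n = 3). OAS1 stood at 10.8 to 13.3 CPM in shMCM7 Dox and at 17.7 to 22.8 CPM in the other 9 libraries, whereas the other 8 genes overlapped between shMCM7 Dox and the rest.

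The RNA sensors were not raised. DDX58, on chromosome 9 from 32455705 to 32526324, was at 7.27, 7.99 and 7.25 CPM in shMCM7 Dox and at 8.55, 8.80 and 8.53 CPM in shMCM7 noDox. The groups did not overlap, and the log2 fold change was -0.20 ± 0.08 (SE, FDR = 0.055 by edgeR's quasi-likelihood test). DDX58 had a difference of the same size in parental cells, at 8.71, 7.59 and 7.10 CPM with Dox and 9.22, 8.83 and 8.64 CPM without Dox (log2 fold change -0.20 ± 0.09, FDR = 0.69). The difference between both Dox effects was -0.01 with a 95% interval of -0.25 to 0.23 on the log2 scale. IFIH1, on chromosome 2 from 162267079 to 162318703, showed values of 3.83, 3.96 and 3.98 CPM in shMCM7 Dox and 3.81, 4.26 and 4.33 CPM in shMCM7 noDox. These overlapped, with a log2 fold change of -0.08 (95% interval -0.28 to 0.13).

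The 3 IFIT genes lie near each other on chromosome 10 and encode proteins that bind foreign RNA and form a common complex. None of the 3 was called. IFIT1 was at 3.05, 4.5 and 3.83 CPM in shMCM7 Dox and at 4.27, 4.95 and 6.64 CPM in shMCM7 noDox. The ranges overlapped, and the log2 fold change was -0.49 ± 0.18 (SE, FDR = 0.054), which missed the threshold. Without shMCM7 noDox replicate 1, the library with low MCM7, IFIT1 was called down-regulated at -0.62 (FDR = 0.021). IFIT2 was at 6.05, 7.98 and 8.53 CPM in shMCM7 Dox and at 4.71, 6.93 and 7.81 CPM in shMCM7 noDox. Replicate 1 was the lowest in both groups, and the log2 fold change was 0.21 with a 95% interval of -0.20 to 0.62. Of the exons of IFIT2, 65 bases overlap LIPA on the other strand, and the use of strand in counting is not given in the sources used here. IFIT3 was the most even of the 3 genes, at 18.2, 19.3 and 18.6 CPM in shMCM7 Dox and 18.0, 18.2 and 19.1 CPM in shMCM7 noDox. Its log2 fold change was 0.02 with a 95% interval of -0.12 to 0.16.

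OAS1, on chromosome 12 from 112906777 to 112933222, encodes an enzyme that makes 2′-5′-linked oligoadenylates upon binding double-stranded RNA and so activates RNase L. It was at 12.5, 13.3 and 10.8 CPM in shMCM7 Dox and at 21.5, 21.6 and 19.0 CPM in shMCM7 noDox. Parental cells had 21.6, 21.7 and 17.7 CPM with Dox and 22.8, 21.3 and 17.9 CPM without Dox. The 3 induced libraries were thus below the other 9 A375 libraries without overlap, as were those of 21.3% of 16334 tested genes. OAS1 was down-regulated in shMCM7 Dox against noDox with a log2 fold change of -0.77 ± 0.09 (SE, FDR = 2.2e-04) in an unpaired fit. In each of the 4 groups replicate 3 had the lowest value. LYZ, a marker of myeloid cells, had a log2 fold change of -0.49 without being called (FDR = 0.0051). Of the 6 tested markers of leukocytes, endothelium and fibroblasts none was called, and 3 had a positive sign, up to 0.62 for the myeloid marker CD14 (FDR = 0.11). The summed level of the 4 leukocyte markers was 9.39 to 12.3 CPM in shMCM7 Dox and 14.6 to 16.3 CPM in shMCM7 noDox, nearly all of it LYZ. Among 9 tested markers of melanocytic and epithelial cells, PMEL fell (-0.92 ± 0.19), EPCAM rose (1.05 ± 0.18) and KRT19 fell (-1.10 ± 0.31, at no more than 0.164 CPM in any A375 library, a call lost in 5 of 12 alternatives). The part of other cells in the OAS1 result was not tested. In these bulk samples, fewer cells with a transcript and less transcript per cell cannot be told apart.

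The other effectors stayed inside the 1.5-fold limits. MX1, a GTPase that blocks viral replication, was at 7.52, 7.53 and 8.28 CPM in shMCM7 Dox and 8.68, 8.41 and 8.81 CPM in shMCM7 noDox. The induced libraries were lower without overlap, by a narrow margin, and the log2 fold change of -0.15 ± 0.08 did not pass (FDR = 0.13). ISG15, a ubiquitin-like modifier, was at 6.36, 4.51 and 6.16 CPM in shMCM7 Dox and 5.95, 6.24 and 6.57 CPM in shMCM7 noDox. The low value of replicate 2 widened its interval, which ran from -0.42 to 0.15 around a log2 fold change of -0.14. IFI6, an inhibitor of apoptosis and of flavivirus replication, was at 12.7, 11 and 11.3 CPM in shMCM7 Dox and 14.4, 12.7 and 12.7 CPM in shMCM7 noDox. The groups touched, and the log2 fold change was -0.18 (95% interval -0.37 to 0.01).

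Dox by itself was not followed by a call. In parental A375 cells, 0 of the 9 genes and 0% of 15993 tested genes were called in either direction by edgeR, although 1121 genes had an unadjusted p under 0.05. DESeq2's Wald test called 3 genes and edgeR with the replicate number as a block called 12, none of them among the 9. Among the 9 genes, DDX58 alone had an unadjusted p under 0.05. The intervals of all 9 genes lay within a 1.5-fold change, with log2 fold changes between -0.20 (DDX58) and 0.07 (IFI6). IFIH1 was the single gene of the 9 whose parental groups did not overlap, at 4.26, 4.07 and 4.21 CPM with Dox and 4.67, 4.64 and 4.78 CPM without Dox, a pattern that 5.98% of tested genes showed in this direction.

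Carrying the uninduced vector was likewise without a call. In shMCM7 noDox against parental noDox, none of the 9 genes was called, while 1.17% of tested genes were up-regulated and 0.478% down-regulated. The log2 fold changes of the 9 genes ran from -0.19 (IFIH1) to 0.24 (IFIT2), and only IFIH1 did not overlap between these groups (10.7% of tested genes lay lower in this way), with a median of 0.00 for the 9 genes and for all genes. An unadjusted p under 0.05 was reached by 0 of the 9 genes and by 2612 of 16093 tested genes (edgeR), and DESeq2 called none of the 9 either. Same-numbered libraries of these groups deviated together. A fit blocked by replicate number gave 335 up-regulated and 149 down-regulated genes, instead of 189 and 77, again without any of the 9.

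When both cell types received Dox, the induced cells again differed in OAS1. In shMCM7 Dox against parental Dox, OAS1 was down-regulated (log2 fold change -0.74 ± 0.10, FDR = 4.2e-04), and the other 8 genes were not called. Of the myeloid markers, LYZ was called lower (-0.70 ± 0.11) and CD14, at no more than 0.164 CPM in A375, higher (1.39 ± 0.28). The background was 7.64% up-regulated and 8.39% down-regulated. The groups did not overlap for 6 of the 9 genes, 2 higher and 4 lower, as for 27.8% and 29.4% of tested genes. This comparison shares the induced libraries with the one above and is no independent repeat of it. With an FDR under 0.05 as the only criterion, IFIT2 (0.45 ± 0.13) and IFIT3 (0.16 ± 0.06) were higher and IFIT1 (-0.39 ± 0.13) and MX1 (-0.20 ± 0.07) lower on the log2 scale, with FDR values of 0.016, 0.046, 0.035 and 0.0498 (edgeR). By this looser criterion 3733 of all 16086 tested genes were higher and 3993 lower, so that such differences are common among all genes. IFIT2 stood at 5.15, 5.44 and 5.87 CPM in parental Dox, below all 3 induced libraries, and it was called up-regulated at 0.59 when shMCM7 Dox replicate 1 was left out.

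Whether Dox acted differently on shMCM7 cells and on parental cells was tested over all 12 A375 libraries. OAS1 was the single gene of the 9 that was called, with a difference of -0.74 ± 0.15 on the log2 scale (FDR = 0.0024), beside 4.37% of 16334 genes called in the upward and 6.17% in the downward direction. IFIT1 had a difference of -0.49 ± 0.22 (FDR = 0.10), and IFI6 one of -0.26 ± 0.12 (FDR = 0.12). Without shMCM7 noDox replicate 1 the IFIT1 difference was called at -0.61 (FDR = 0.035). The other 6 genes had differences between -0.14 (MX1) and 0.21 (IFIT2).

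**Figure D2:**
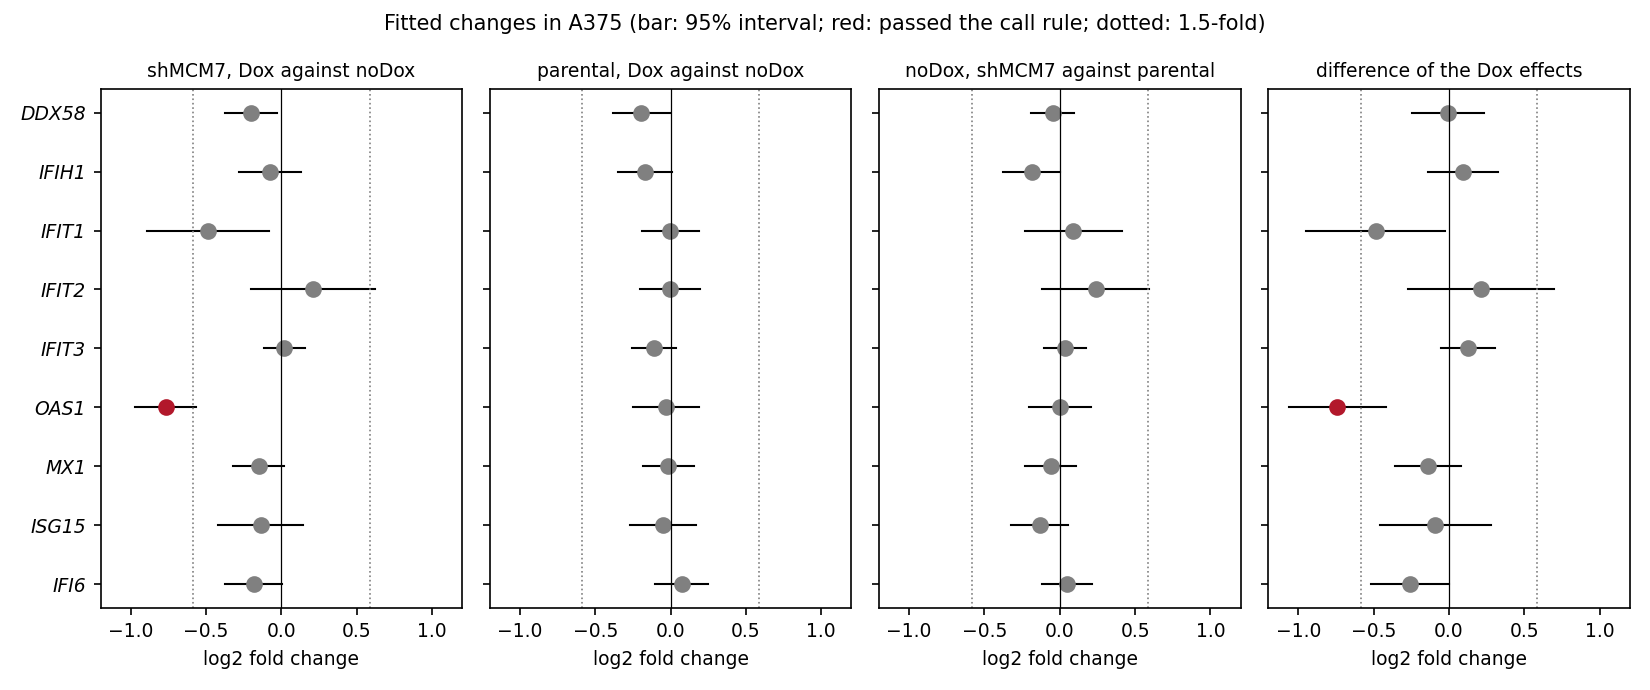
Log2 fold change of each gene in 3 comparisons of A375 groups and, in the right panel, the difference of the Dox effects in shMCM7 minus parental cells, with 95% intervals from edgeR. Red points passed the call rule and dotted lines mark a 1.5-fold change, which OAS1 crossed in the first panel (-0.77) and the last panel (-0.74).

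The interferon genes themselves were close to silent. IFNK, IFNG and IFNL3 had 0 counts in all 24 libraries, and IFNB1, IFNA1, IFNL1 and IFNL2 had at most 2, 1, 4 and 1 counts in any A375 library and 0 in A549. At these depths a count of 0 allows up to 3 counts, or 0.0205 CPM in the shallowest A375 library and 0.167 CPM in the shallowest A549 library. IFNE, an interferon of epithelia that is expressed without infection, was the one ligand above the filter, at 0.724 ± 0.0817 CPM in A375 shMCM7 Dox and 0.823 ± 0.0370 CPM in shMCM7 noDox (SD, n = 3). The difference in IFNE was -0.19 on the log2 scale and did not pass (FDR = 0.33).

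Of the 12 receptor and JAK-STAT genes, all 12 were tested, and 1 was down-regulated in A375 shMCM7 Dox against noDox. For this and the following lists in the same comparison, the share over all tested genes was 5.58% up and 6.45% down, and counts of 1 or a few genes are to be read against it. The gene called was IFNLR1, the ligand-binding chain of the interferon lambda receptor, at 2.79, 2.64 and 2.94 CPM with Dox and 5.03, 5.66 and 7.12 CPM without Dox (log2 fold change -1.09 ± 0.13, FDR = 2.5e-04). The induced libraries held about the same value, well below the lowest uninduced library.

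None of the 20 tested sensors, adaptors and interferon regulatory factors (21 listed) was called in either direction, and their median was -0.02. Of the DNA sensing pair, chosen for mention after its values were seen, MB21D1 (cGAS) had at most 22 counts in any A375 library (0 to 0.0767 CPM) and 9.05 to 15.3 CPM in A549, whereas TMEM173 (STING) stood at 28.9 to 40.1 CPM in A375 and 0.378 to 1.11 CPM in A549. Each line thus had one of the pair at a high and the other at a low level. In A375 shMCM7 Dox against noDox, TMEM173 was lower by -0.38 ± 0.06 on the log2 scale (FDR = 6.8e-04), below the fold required for a call.

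Among 40 other interferon-stimulated genes, all tested, 2 were up-regulated and 4 down-regulated, with a median of -0.02, which is close to the share over all genes. HERC5, the ligase that attaches ISG15, fell from 6.0, 7.45 and 8.11 CPM to 3.62, 3.87 and 4.29 CPM (log2 fold change -0.87 ± 0.12, FDR = 5.3e-04). GBP2, a guanylate-binding protein, fell from 11.8, 16.2 and 16.1 CPM to 7.64, 9.18 and 8.63 CPM (-0.79 ± 0.13). TRIM14, which takes part in MAVS signaling, fell from 34.0, 40.9 and 42.7 CPM to 22.8, 23.3 and 23.5 CPM (-0.76 ± 0.08). In all 3 genes the groups were apart, and TRIM14 was the most abundant of them.

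OASL, a relative of OAS1 that lacks its enzymatic activity, was at 0.537, 0.758 and 0.528 CPM with Dox and 0.776, 1.05 and 1.24 CPM without Dox (-0.76 ± 0.21). The call for OASL was lost when any one of 4 of the 6 libraries was left out. Of the 2 remaining OAS genes, named after their values were seen, OAS3 had a log2 fold change of -0.57 ± 0.05 (FDR = 8.4e-05), just under the required fold, and OAS2 one of -0.18 ± 0.08 (FDR = 0.085). In the test of the difference of Dox effects, OAS1 and OAS3 (-0.65 ± 0.08) were called, whereas OASL (-0.58 ± 0.27, FDR = 0.12) and OAS2 (-0.19 ± 0.11, FDR = 0.19) were not. Over all 16334 genes of that test 6.17% were called in the downward direction. It shares the shMCM7 libraries with the comparison above and is no independent support.

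The 2 genes that rose were weakly expressed. IFI44L, whose product is an interferon-induced antiviral protein, was at 2.21, 2.14 and 2.20 CPM with Dox and 1.16, 1.43 and 1.67 CPM without Dox (log2 fold change 0.62 ± 0.14). Without shMCM7 noDox replicate 1 its call was lost at 0.49. EPSTI1, known from epithelial-stromal interaction, was at 0.289 to 0.366 CPM with Dox and 0.149 to 0.211 CPM without Dox (0.89 ± 0.22), and its call was lost without shMCM7 Dox replicate 3 or shMCM7 noDox replicate 2.

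**Figure D3:**
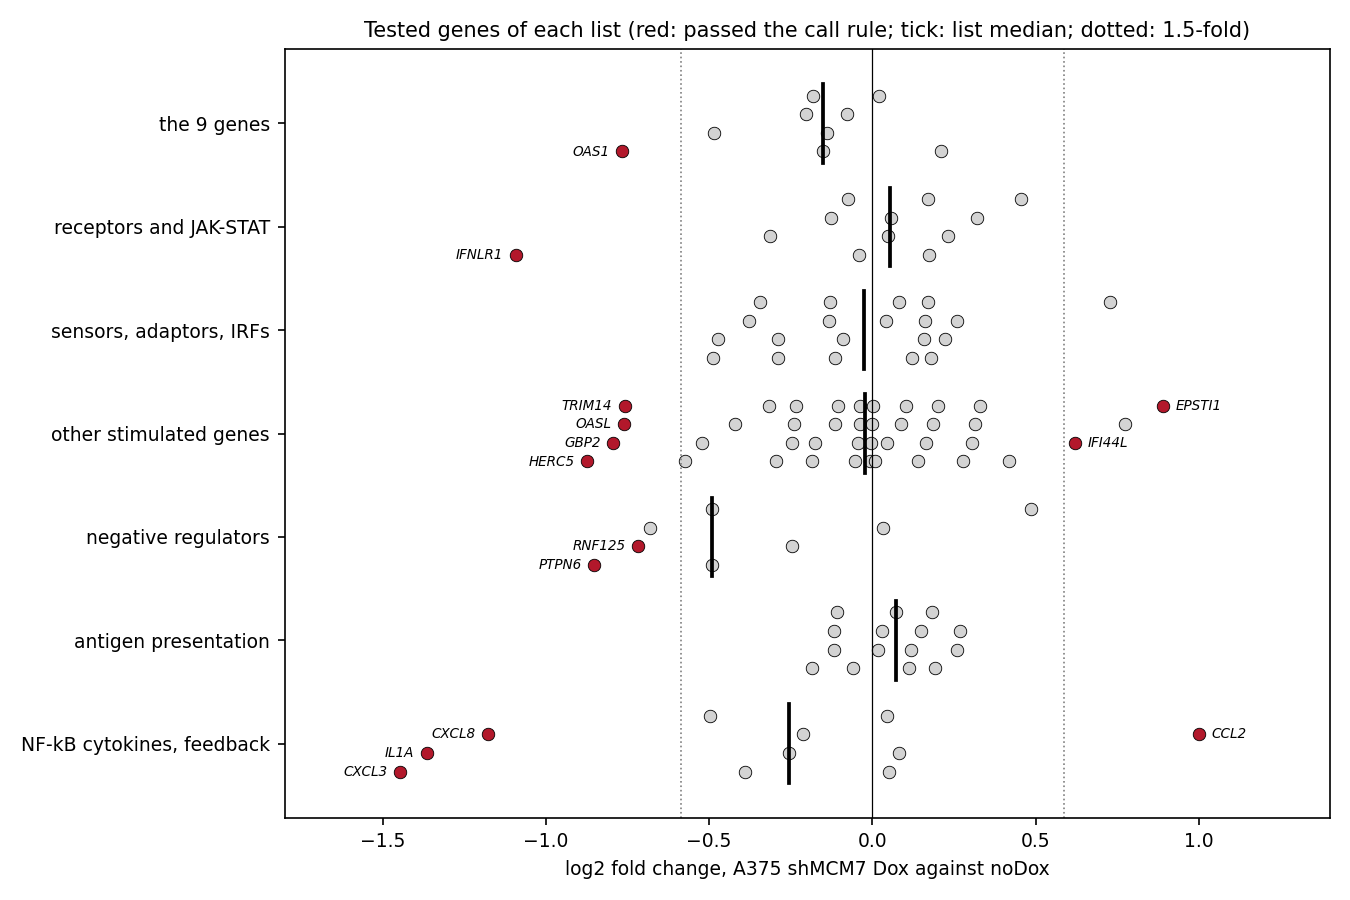
Log2 fold change in A375 shMCM7 Dox against noDox of every tested gene in the list of 9 and in 6 further lists, with the list median as a tick and called genes in red. Called genes are found on both sides among the 40 other interferon-stimulated genes (2 up, 4 down), on neither side among sensors and antigen presentation genes, and on the lower side in the list of 9 (OAS1).

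Of 8 negative regulators, 2 were down-regulated and none up-regulated, with a median of -0.49. PTPN6 (the phosphatase SHP-1) was at 0.652, 0.466 and 0.605 CPM with Dox and 0.871, 1.11 and 1.15 CPM without Dox (log2 fold change -0.85 ± 0.18). RNF125, a ubiquitin ligase that marks RIG-I for degradation, fell from 37.0, 40.0 and 32.9 CPM to 23.4, 24.1 and 19.4 CPM (-0.72 ± 0.10). RNF125 is the more abundant of both genes, and its groups were well apart. None of the 15 antigen presentation genes was called, and their log2 fold changes lay between -0.18 and 0.27.

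The NF-kB list had calls in both directions. Of 11 tested genes (14 listed), 3 fell and 1 rose in A375 shMCM7 Dox against noDox. The neutrophil chemokines CXCL3 and CXCL8 fell by 1.45 and 1.18 on the log2 scale, and IL1A, an inflammatory cytokine, fell by 1.37. CXCL8 was at 19.8, 18.6 and 15.1 CPM with Dox and 43.6, 36.6 and 40.6 CPM without Dox. CCL2, a chemokine for monocytes, rose from 1.34, 1.00 and 1.14 CPM to 2.17, 2.44 and 2.37 CPM (log2 fold change 1.00 ± 0.13).

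In shMCM7 noDox against parental noDox, a different pair of this list was called higher, out of 11 tested genes. The share over all tested genes in this comparison was 1.17% up-regulated and 0.478% down-regulated. IL6 was at 0.704, 0.995 and 0.340 CPM in shMCM7 noDox and at 0.0716, 0.216 and 0.0673 CPM in parental noDox, and its log2 fold change of 2.48 ± 0.48 was called (FDR = 0.025). IL1B was at 4.42, 3.79 and 2.44 CPM in shMCM7 noDox and at 1.54, 1.34 and 1.13 CPM in parental noDox, a log2 fold change of 1.40 ± 0.21 (FDR = 0.0053). Neither gene passed the test for Dox in shMCM7 cells, with log2 fold changes of 0.05 ± 0.33 for IL6 and 0.08 ± 0.20 for IL1B. The call for IL6 was lost when any one of 3 libraries was left out. No gene of any list was called in parental A375 Dox against noDox.

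Likeness to the 9 genes was described over the 12 A375 libraries. The mean z-score of their log2 CPM was most like that of SMG8, BUD13, BLMH, DHX9 and ASH2L, with Pearson's r of 0.953, 0.943, 0.939, 0.934 and 0.931. The points share the group structure and depth of the libraries. The 9 genes did not share 1 pattern, as r with their own mean ran from -0.287 (IFIT2) and -0.025 (IFIT3) to 0.824 (IFIT1).

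In A549, comparisons by label gave no calls. In the libraries labelled shMCM7 Dox against shMCM7 noDox, 0 of the 9 genes and 0% of 13550 genes were called by edgeR in either direction, beside 61 genes whose unadjusted p was under 0.05 and 0 calls by DESeq2. In parental cells, 0 of the 9 genes and 0% of 13494 genes were called, beside 1137 genes whose unadjusted p was under 0.05 and 9 calls by DESeq2. The parental counts rested on single libraries. Without the library labelled parental noDox 3, edgeR called 300 genes higher and 3800 had an unadjusted p under 0.05, while without parental Dox 2 it called 0 and 296 had such a p. Since MCM7 does not follow the labels, these comparisons do not compare cells with and without MCM7 depletion. The lowest unadjusted p among the 9 genes was 0.025, for IFIT2 in parental Dox against noDox (log2 fold change -0.91 ± 0.33, FDR = 0.51). Without the library labelled parental noDox 2, this value was -0.49 (FDR = 0.47).

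The A549 values are therefore given library by library. No test was made on libraries chosen by MCM7, since such groups would not be those of the labels. OAS1 in the order of replicates 1 to 3 was at 53.4, 54.2 and 38.4 CPM in the libraries labelled shMCM7 Dox, 53.6, 39.4 and 61.5 CPM in shMCM7 noDox, 59.1, 54.3 and 55.8 CPM in parental Dox and 64.4, 43.3 and 54.1 CPM in parental noDox. The lowest OAS1 values came from shMCM7 Dox 3, shMCM7 noDox 2 and parental noDox 2, which are also the libraries with the lowest MCM7. Other named genes were lowest in the same libraries. TRIM14 was at 13.0, 12.3 and 11.4 CPM there, in the same order, and at 35.8 CPM or more in the others. HERC5 was at most 4.66 CPM there and at least 8.95 CPM elsewhere, and CXCL3 at most 2.71 and at least 9.67 CPM. IFNLR1, CXCL8, CCL2 and RNF125 were also lowest there, whereas PTPN6, IL6, KRT19 and OASL, among others, were not. The share of all genes with this pattern was not tested, so that nothing particular to OAS1 can be read from it. IFIT2 was at 3.01, 2.80 and 6.40 CPM in shMCM7 Dox, 3.74, 5.22 and 5.22 CPM in shMCM7 noDox, 2.34, 2.0 and 2.51 CPM in parental Dox and 3.43, 6.42 and 3.07 CPM in parental noDox. Its highest values lay in parental noDox 2 and shMCM7 Dox 3, followed by both shMCM7 noDox 2 and 3. These include the libraries with the lowest MCM7, but shMCM7 noDox 3, with MCM7 at 309 CPM, was level with shMCM7 noDox 2. IFIT1 was lowest in shMCM7 noDox 2, parental noDox 2 and shMCM7 Dox 3, at 1.84, 2.06 and 2.99 CPM (36, 41 and 70 counts), and ranged from 3.19 to 5.70 CPM in the rest. As for OAS1, these are the libraries with the lowest MCM7, and the share of all genes with this order was not tested.

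In the remaining genes of the 9 the low-MCM7 libraries were not set apart from all others. DDX58 was at 27.5 and 26.8 CPM in parental noDox 2 and shMCM7 noDox 2 but at 22.0 CPM in shMCM7 Dox 3, inside the range of the others (20.1 to 24.9 CPM). IFIH1 was at 3.41 to 5.92 CPM and MX1 at 0.716 to 1.68 CPM, each with the low-MCM7 libraries inside the range. ISG15 was at 3.16 and 3.33 CPM in shMCM7 Dox 3 and shMCM7 noDox 2 and at 1.85 CPM in parental noDox 2. IFIT3 was highest in parental noDox 2 (9.17 CPM), followed by shMCM7 Dox 2 (8.92 CPM, with MCM7 at 333 CPM), shMCM7 Dox 3 (8.79 CPM) and shMCM7 noDox 2 (7.99 CPM), and was at 4.77 to 6.75 CPM in the other 8 libraries. IFI6 was at 3.75 to 6.56 CPM, with its highest values in shMCM7 noDox 2 (6.56 CPM) and parental noDox 2 (6.07 CPM) and 5.72 CPM in shMCM7 Dox 3, below shMCM7 Dox 2 (5.88 CPM). At these depths MX1 rested on as few as 14 counts, and IFIT1 on as few as 36.

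**Figure D4:**
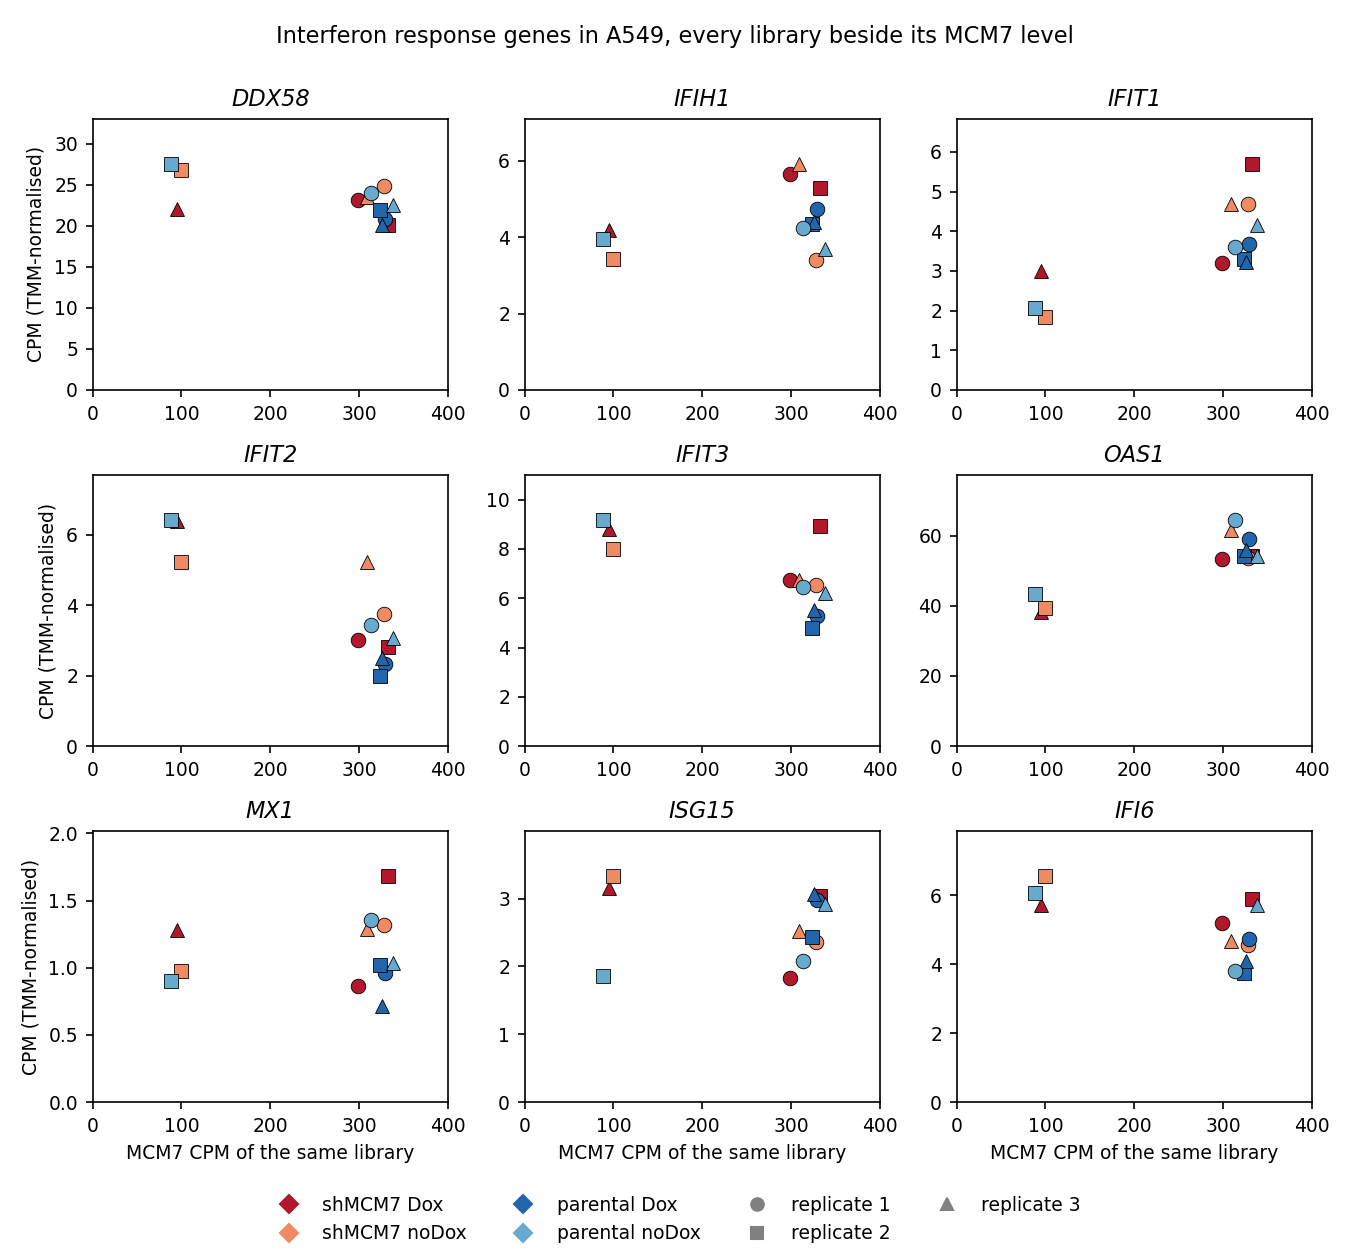
Level of each gene in the 12 A549 libraries (vertical axis, CPM) against MCM7 in the same library (horizontal axis, CPM), with colors for the labelled group and symbols for the replicate number. OAS1 stood at 38.4 to 43.3 CPM in the 3 libraries with MCM7 at 88.6 to 99.7 CPM and at 53.4 to 64.4 CPM in the others, shown as a description with no test. IFIT1 was likewise at 1.84 to 2.99 CPM in these 3 libraries and at 3.19 to 5.70 CPM in the others. TRIM14, HERC5 and CXCL3, not shown, were also lowest in these 3 libraries. The share of all genes with this pattern was not tested.

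The levels of the 9 genes were set side by side in both lines over all 12 libraries of each. Expressed per kb of exon so that genes can be compared, the median level in A375 was highest for IFI6 (14.7 CPM per kb), followed by IFIT3 (6.88), ISG15 (6.77), OAS1 (4.08), DDX58 (1.96), IFIT2 (1.44), IFIT1 (1.05), MX1 (1.01) and IFIH1 (0.829). The ranges over libraries of IFIT3 and ISG15 overlapped, as did those of each neighboring pair from DDX58 to IFIH1. The ranges alone do not settle the order of these neighbors, and differences within the same library were not tested. In A549, OAS1 was first (10.9 CPM per kb), followed by IFI6 (5.75), DDX58 (5.25), ISG15 (2.90), IFIT3 (2.51), IFIH1 (0.840), IFIT2 (0.793), IFIT1 (0.751) and MX1 (0.120). The pairs that did not overlap in A549 were OAS1 and IFI6, DDX58 and ISG15, IFIT3 and IFIH1, and IFIT1 and MX1. The exon length takes in every annotated exon of a gene, expressed or not, so that the order of the genes also depends on annotation.

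For 6 of the 9 genes the 12 libraries of one line lay apart from the 12 of the other, as for 59.2% of the 13279 genes tested in both lines. IFIT3, ISG15, MX1 and IFI6 were higher in A375 and OAS1 and DDX58 in A549. MX1 showed the widest gap, at 7.52 to 9.52 CPM in A375 against 0.716 to 1.68 CPM in A549. OAS1 stood at 10.8 to 22.8 CPM in A375 against 38.4 to 64.4 CPM in A549. IFIT1, IFIT2 and IFIH1 overlapped. The lines were normalized separately and differ in depth, and line and depth cannot be told apart.

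**Figure D5:**
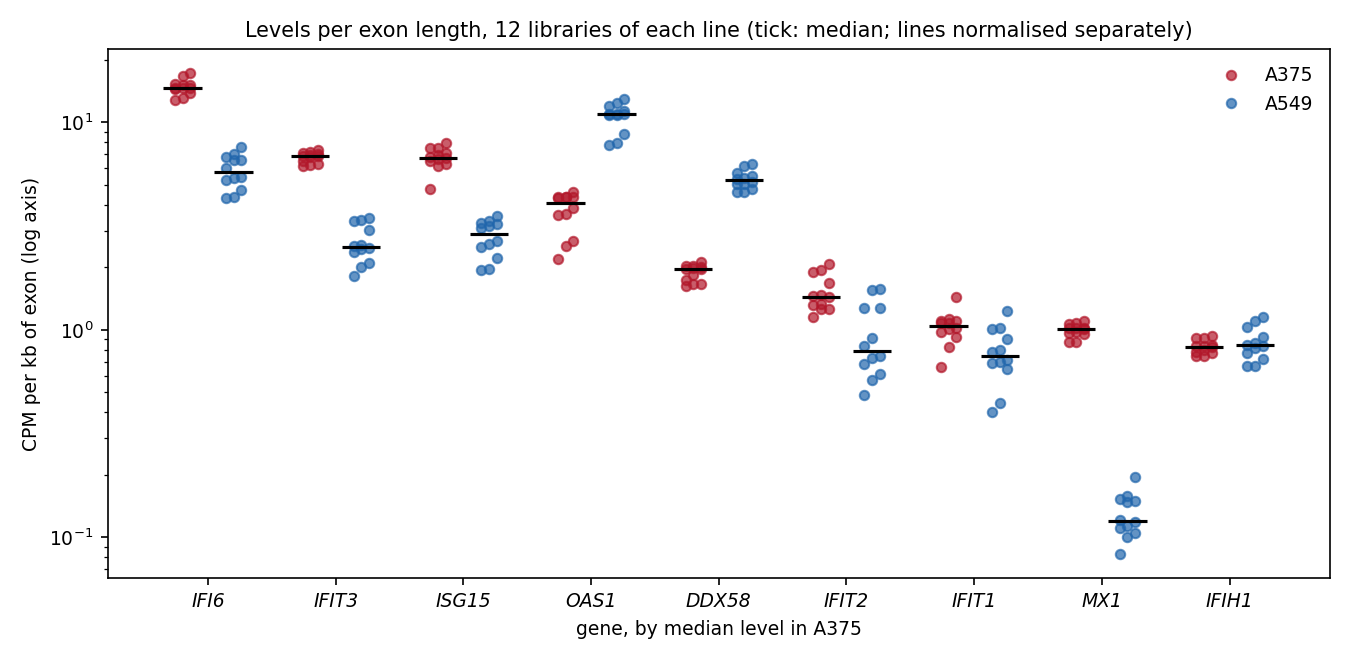
CPM per kb of exon of each gene in the 12 libraries of A375 and the 12 of A549, on a log axis, with the median as a tick and genes ordered by their median in A375. MX1 (median 1.01 and 0.120 CPM per kb) lay lower in A549, and OAS1 (4.08 and 10.9) and DDX58 (1.96 and 5.25) higher, whereas IFIH1 (0.829 and 0.840) overlapped.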

How the data were processed

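For each library the authors deposited a table of whole-number read counts per gene, without normalization. The study's methods name STAR for alignment and DESeq2 and edgeR for expression, and the processing notes of the submitters add Trimmomatic, STAR 2.7.1, featureCounts, bcl2fastq 2.19 and GRCh38.p10. Strand settings are not given in the sources used here. Of the 21386 identifiers, 21349 were found in GENCODE 29 (GRCh38), which gave names, exons and coordinates.

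Groups follow the labels. Counts were tested with edgeR 4.0.16 in R 4.3.3 (TMM, filterByExpr, glmQLFit and glmQLFTest, prior count 0.125), with only the compared groups in each fit and all 12 libraries for the difference of effects. FDR is the Benjamini-Hochberg value over all genes tested, and intervals are at 95%. Alternatives were DESeq2 1.42.0 (its size factors, its Wald test), no filter, the replicate number as a block, a spread shared by all 12 libraries of a line, FDR alone, and leaving out each library. The steps were tested on simulated data.

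The 9 genes, the other gene lists and the tests were chosen with earlier results of these data known. Besides the 9 genes, up to 4 called genes per list and direction were named in A375 shMCM7 Dox against noDox and in shMCM7 noDox against parental noDox, along with the ligands, the 5 most alike genes of at least 1 CPM on average, and MCM7. The labels share replicate numbers. Same-numbered libraries of A375 shMCM7 and parental noDox deviated together from their group means (r = 0.318, 0.212 and 0.341 across genes), and the block left the 9 genes uncalled there. In the other pairs of groups at least one r was at or under 0.1. No library was left out.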

Additional observations from a re-analysis of the deposited data

Results flagged for a closer look

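In A375, Dox had unlike effects in shMCM7 cells and in parental cells, by a test of the difference itself over all 12 libraries (edgeR), for OAS1 (-0.74 on the log2 scale) and for 11 named genes of the interferon and NF-kB lists and 2 line markers. These named genes and markers were picked for their calls in shMCM7 Dox against noDox, whose libraries are part of this test. Their calls here are therefore no independent support. Over all 16334 tested genes, 4.37% were called in the upward and 6.17% in the downward direction. The differences were -1.08 for IFNLR1, 0.77 for IFI44L, -0.88 for HERC5, -0.70 for GBP2, -0.84 for TRIM14, -1.17 for PTPN6 and -0.65 for RNF125. They were 1.06 for CCL2, -1.22 for CXCL3, -1.11 for IL1A and -0.82 for CXCL8. The markers PMEL and EPCAM differed by -0.92 and 0.91. Of 17 alternatives, the call was lost in 8 for IFI44L, 6 for PMEL, 8 for EPCAM and 2 for RNF125. Groups of 3 libraries were not searched for outlying values.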

How the results depend on the processing

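The OAS1 call held under every alternative run in its 3 comparisons, with log2 fold changes of -0.83 to -0.68 against noDox, -0.82 to -0.65 against parental Dox and -0.83 to -0.64 for the difference of effects. Of 801 alternative values of the 9 genes, 794 kept their call, 7 gained one and none lost one or reversed a call, while 41 of 753 uncalled values changed sign. With libraries left out 1 at a time, the number of the 9 genes called lower was 1 to 2 in A375 shMCM7 Dox against noDox and in the difference of effects, the higher number (with IFIT1) only without shMCM7 noDox replicate 1, and the number called higher was 0 to 1 in shMCM7 Dox against parental Dox (IFIT2, without shMCM7 Dox replicate 1). With FDR alone, 2 genes were higher and 3 lower in the last comparison, beside 3733 higher and 3993 lower of 16086 tested genes. The replicate block changed no call among the 9 genes, with OAS1 at -0.77 and IFIT1 at -0.48 (FDR = 0.0066, short of the fold required) against noDox. Of 522 alternative values of other named genes, 39 lost a call, mostly for IFI44L, PMEL and EPCAM in the difference of effects, and 1 gained one. In A549, the depth limits what can be seen of MX1 and IFIT1, and the labels limit what the comparisons mean. Leaving out a library also lowers the number of samples in a fit.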
